A study of Mus musculus with 4 samples.

Results

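The genes described here are 10 genes that are used to recognise blood stem and progenitor cells in the mouse: Cd34, Flt3, Procr, Eng, Slamf1 and Ly6a, which encode proteins of the cell surface, and Sox4, Myb, Mecom and Hlf, which encode transcription factors. They were taken by symbol from a given list, and all 10 were found among the 43629 gene identifiers of the count tables. Each of the 10 also passed the filter on low counts, which kept 16500 genes. RNA was sequenced from hematopoietic stem and progenitor cells (HSPCs) of C57Bl/6 mice, enriched for CD117, the receptor of stem cell factor, and grown in medium that held, by the sample labels, SCF at 50 ng/mL, IL-6 at 20 ng/mL and IL-3 at 10 ng/mL, while the methods of the study give another concentration of IL-6. The comparison asks what loss of CHAF1B, a subunit of the histone chaperone CAF-1, does to gene expression in such cells. Control cells were Chaf1b (fl/fl), carrying loxP sites in both copies of the gene, and received the empty retroviral vector MIGR1. Chaf1b-deleted cells came from the same floxed genotype, received MIGR1-Cre and are labelled Chaf1b (-/-). Both groups had 2 libraries, from cells sorted for the eGFP of the vector at 48 h. The cells measured are therefore those that divided in culture and took up a retrovirus, and both groups had been infected. Nothing in the sources used here says whether the replicates of a group came from separate animals or cultures, so p-values measure the spread between these libraries, which for the controls may be technical.

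Blood stem cells are rare cells that renew themselves and give rise to progenitors, which multiply and become committed to the lymphoid, myeloid, megakaryocytic or erythroid lineage. Surface proteins are combined to sort these stages: in the mouse, long-term stem cells are found among cells with SLAMF1, EPCR (the product of Procr), endoglin (Eng) and SCA-1 (Ly6a), while CD34 and FLT3 appear as stem cells turn into multipotent progenitors. Of the transcription factors, MECOM and HLF are tied to the stem cell state, and MYB and SOX4 are active in dividing progenitors. In a bulk sample, a lower level from fewer cells of a type and from less RNA per cell cannot be told apart, and the same holds for a higher level.

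Reads counted on genes numbered 22736626 in control replicate 1, 25409926 in control replicate 2, 23539015 in Chaf1b-deleted replicate 1 and 18468637 in Chaf1b-deleted replicate 2. Levels are given as CPM, each count scaled to the total on genes of its library,, with 95% Wilson intervals where counts were low. A count of 3, taken as the floor of detection, equals between 0.118 and 0.162 CPM. Intervals and floors cover counting error only, because the reads carry no molecular identifiers. Fold changes are those of Chaf1b-deleted over control cells, and a gene was called when it differed by at least 1.5-fold with an adjusted p-value under 0.05 in the quasi-likelihood test of edgeR, adjusted by the Benjamini-Hochberg method over the 16500 genes. With 2 libraries per group, an exact permutation test of a single gene could not go under a two-sided p of 0.333, so it was not used.

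Chaf1b itself (ENSMUSG00000022945) was measured first, as a check of the labels. It had 80.3 and 57.9 CPM in the control libraries and 16.1 and 17.9 CPM in the Chaf1b-deleted libraries. Both deleted libraries lay far below both controls, in the direction of their labels, with 378 and 330 counts left. Counts over the whole gene do not show whether both copies were deleted in every cell. Expression fell by 2.01 on the log2 scale (SE 0.25; edgeR quasi-likelihood test, adjusted p = 0.0330).

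Chaf1b-deleted replicate 1 stood apart from the other 3 libraries in other ways. It held 7905 counts of Xist, the RNA of the inactive X chromosome, where control replicates 1 and 2 held 26 and 33 and Chaf1b-deleted replicate 2 held 23. Genes of the Y chromosome had 3 counts in that library and 7383, 7774 and 5805 counts in control replicate 1, control replicate 2 and Chaf1b-deleted replicate 2. By these values the deleted libraries were not made from the same animal. Interferon-stimulated genes were also high in Chaf1b-deleted replicate 1: on the scale of log2 (CPM + 0.5), 20 of 20 listed genes lay more than 1 above the mean of the controls in Chaf1b-deleted replicate 1 and 0 of 20 in Chaf1b-deleted replicate 2, where Oasl2 came closest (0.98). Their summed level was 353 and 369 CPM for control, against 2342 CPM for Chaf1b-deleted replicate 1 and 423 CPM for Chaf1b-deleted replicate 2. Values without that library are given below for results that rest on it. Control replicate 1 differed in another respect, with a count for 39.7% of 1036 olfactory receptor genes, known for their expression in the nose, against 11.8% in control replicate 2 and 4.05% and 7.14% in the deleted libraries. These counts were low, with a 95th percentile of 2 per gene in control replicate 1.

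Cells of the labelled kind should express Kit, the gene of CD117, and it was present in all 4 libraries at 109, 124, 95.6 and 124 CPM. Its groups overlapped (log2 fold change -0.08, SE 0.20; edgeR quasi-likelihood test, adjusted p = 0.921). Among the 14 listed genes of committed myeloid progenitors, the granule enzyme gene Mpo had 3417, 2683, 3362 and 2238 CPM. The populations thus held abundant RNA of myeloid progenitors beside that of the stem cell genes.

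After Chaf1b deletion, both deleted libraries exceeded both controls for 7 of the 10 genes, and Myb was lower in both. Flt3 rose about 4-fold and was the gene of the 10 that passed the adjusted test. Procr, Ly6a, Eng, Mecom, Sox4 and Cd34 had positive log2 fold changes between 0.57 and 2.50 that did not pass it, and Hlf and Slamf1 had overlapping groups. The median log2 fold change of the 10 genes was 1.07, beside -0.03 over the 16500 genes tested, and was 0.73 without Chaf1b-deleted replicate 1 and 0.99 without Chaf1b-deleted replicate 2. The number of genes called higher was 1 of 10, where 0.370% of all genes tested were called higher, and 0 of 10 were called lower, where 0.00606% were. At an unadjusted p under 0.05 in the same edgeR test, 7 of the 10 were higher and 1 was lower, against 9.15% and 3.10% of all genes tested. Groups without overlap, as seen in 7 genes upward and 1 downward, occurred in 21.4% of all genes tested upward and in 22.9% downward. With DESeq2, 3 of the 10 were called higher (Eng, Flt3 and Procr) and 0 lower, against 3.09% and 0.210% of the genes that received an adjusted p-value from it. These are counts over a chosen list and carry no test of the list.

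**Figure D1:**
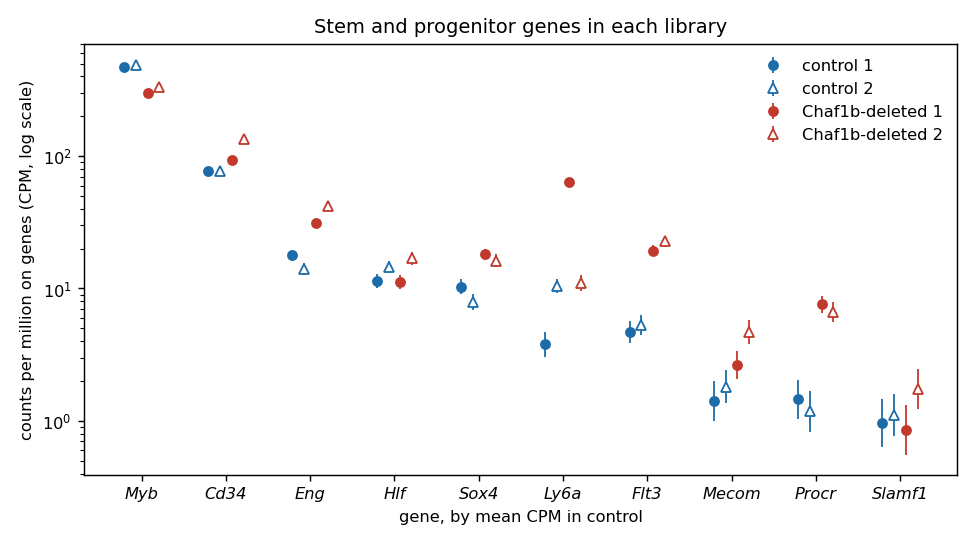
CPM (log axis) for each of the 10 genes in each library, ordered by mean CPM in control, with control in blue, Chaf1b-deleted in red, circles for replicate 1, triangles for replicate 2 and bars for 95% Wilson intervals. The red marks of Flt3 (19.3 and 22.7 CPM) and Procr (7.60 and 6.66 CPM) lie well above the blue ones, those of Myb lie below, and the red marks of Ly6a lie far from each other.

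Flt3 encodes a receptor tyrosine kinase for FLT3 ligand, found on multipotent, lymphoid-primed and dendritic cell progenitors. The gene (ENSMUSG00000042817) lies at chr5:148142317-148212065 on the minus strand of NCBIM37, the Ensembl name of mm9, with 6176 bases of exons. Control libraries had 4.66 CPM (95% Wilson interval 3.86 to 5.64) and 5.31 CPM (4.49 to 6.29), from 106 and 135 counts. Chaf1b-deleted libraries had 19.3 CPM (17.6 to 21.1) and 22.7 CPM (20.6 to 25.0), from 454 and 419 counts. Replicates of a group were within 1.18 times each other, and both deleted libraries were clearly above both controls. Expression rose by 2.09 on the log2 scale (SE 0.28, 95% interval 1.44 to 2.74), or 4.26-fold (edgeR quasi-likelihood test, adjusted p = 0.0383). By the p-value of the test, Flt3 ranked 39 of 16500 genes. Without Chaf1b-deleted replicate 1, the library with high interferon-stimulated genes, the log2 fold change was 2.10 (adjusted p = 0.0315 in the same edgeR test), and without Chaf1b-deleted replicate 2 it was 2.09 (adjusted p = 0.0290). The call was lost with other scalings: adjusted p = 0.0503 with the size factors of DESeq2 in edgeR and 0.0585 with library size only, at log2 fold changes of 2.09 and 2.07. It was also lost when every library had to hold at least 10 counts (adjusted p = 0.0651 in edgeR), while DESeq2 gave an adjusted p of 5.8e-08. With the replicate number as a block in edgeR, the call was lost as well (log2 fold change 2.09, adjusted p = 0.0960).

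Procr encodes the endothelial protein C receptor, which marks long-term stem cells and is also made by endothelium. It (ENSMUSG00000027611) lies at chr2:155576853-155581207 on the plus strand of NCBIM37, with 2031 exonic bases. In the controls Procr had few counts, at 1.45 CPM (95% Wilson interval 1.03 to 2.04) and 1.18 CPM (0.827 to 1.69), from 33 and 30 counts. It stood at 7.60 CPM (6.57 to 8.80) and 6.66 CPM (5.58 to 7.95) in the deleted libraries, from 179 and 123 counts. The deleted libraries were close to each other and above the controls beyond counting error. The log2 fold change was 2.47 (SE 0.42, 95% interval 1.49 to 3.44), or 5.53-fold, with an adjusted p of 0.0706 in the edgeR quasi-likelihood test, so Procr missed the threshold. It passed with the exact test of edgeR (adjusted p = 0.000275) and with DESeq2 (4.1e-05). Without Chaf1b-deleted replicate 1 the log2 fold change was 2.25 (edgeR adjusted p = 0.0727), and without Chaf1b-deleted replicate 2 it was 2.67 (0.0293).

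Eng encodes endoglin, a co-receptor for ligands of the TGF-beta family that is found on long-term stem cells, early erythroid cells and endothelium. It (ENSMUSG00000026814) lies at chr2:32502115-32538189 on the plus strand of NCBIM37, with 3870 exonic bases. The controls had 17.9 and 13.9 CPM, and the deleted libraries had 31.5 and 42.2 CPM. The lower deleted library was above the higher control, and replicates of a group differed by up to 1.34 times. Its log2 fold change was 1.22 (SE 0.25, 95% interval 0.65 to 1.79), or 2.34-fold (edgeR quasi-likelihood test, adjusted p = 0.105). It passed the threshold with the exact test of edgeR (adjusted p = 0.00645) and with DESeq2 (0.00201). Of the exonic bases of Eng, 3.2% are shared with Ak1 on the same strand and 1.58% with Fpgs on the opposite strand, so its counts are less certain. Antisense genes cover 5.65% of the exonic bases of Cd34 (Gm16897) and 13% of those of Myb (Gm16786). Unlike Ak1 and Fpgs, neither is in the count tables, so they took no reads from Cd34 or Myb. Reads of their RNA may be included if counting ignored the strand, which carries over to the ratio of Cd34 to Myb counts given below. Ak1 had 117 and 102 counts in the controls and 394 and 231 in the deleted libraries, and Fpgs had 580 and 505, then 396 and 323.

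The promoters of these 3 genes, which had higher levels in both deleted libraries, are shown beside that of Myb, which was lower in both, to let a reader compare their base composition. Each line gives the 250 bases before the RefSeq start in GRCm38.p6, read 5′ to 3′ on the strand of the gene, and capitals mark the core of the ETS factor motif, GGAAG or its reverse complement CTTCC. RefSeq windows were found for 9 of the 10 genes, with 10 windows in all because Mecom has 2.
Flt3: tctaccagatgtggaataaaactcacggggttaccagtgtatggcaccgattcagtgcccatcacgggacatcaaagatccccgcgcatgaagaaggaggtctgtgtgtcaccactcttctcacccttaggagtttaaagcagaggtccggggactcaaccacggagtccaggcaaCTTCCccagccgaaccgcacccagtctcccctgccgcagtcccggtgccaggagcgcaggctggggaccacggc
Procr: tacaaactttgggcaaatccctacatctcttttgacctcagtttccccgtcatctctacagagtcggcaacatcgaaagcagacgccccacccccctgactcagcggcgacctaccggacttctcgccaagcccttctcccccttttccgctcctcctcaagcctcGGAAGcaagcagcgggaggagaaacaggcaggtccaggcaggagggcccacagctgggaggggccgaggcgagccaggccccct
Eng: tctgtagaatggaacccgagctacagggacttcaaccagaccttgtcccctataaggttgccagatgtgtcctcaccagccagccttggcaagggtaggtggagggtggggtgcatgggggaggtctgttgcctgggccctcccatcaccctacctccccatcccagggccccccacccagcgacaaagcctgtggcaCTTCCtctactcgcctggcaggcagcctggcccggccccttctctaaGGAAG
Myb: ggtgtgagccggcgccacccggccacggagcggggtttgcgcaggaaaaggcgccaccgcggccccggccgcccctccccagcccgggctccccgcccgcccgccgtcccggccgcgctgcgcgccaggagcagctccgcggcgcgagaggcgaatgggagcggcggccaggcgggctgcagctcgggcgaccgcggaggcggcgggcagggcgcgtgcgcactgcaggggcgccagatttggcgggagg

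The window of Flt3 lies at chr5:147400490-147400739 (minus strand), that of Procr at chr2:155750967-155751216 (plus), that of Eng at chr2:32646345-32646594 (plus) and that of Myb at chr10:21160985-21161234 (minus). Bases G and C made up 59.2% of the Flt3 window, 61.6% of that of Procr and 62.4% of that of Eng, and 81.2% of that of Myb, where the median of 32851 windows was 52.4%. For other genes higher in both deleted libraries, this share was 46.4% (Cd34), 50.8% (Sox4) and 50.8% and 50.4% (Mecom). It was 67.2% for Hlf and 47.2% for Slamf1, whose groups overlapped. The dinucleotide CG occurred 13 times before Flt3, 13 times before Procr, 4 times before Eng and 40 times before Myb, against a median of 6. The letters GGAAG, on either strand, were found 1 time before Flt3, 1 time before Procr and 2 times before Eng. They were found neither before Myb nor in the Mecom window at chr3:30509760-30510009. Both of these windows do hold the shorter GGAA or its reverse complement TTCC, so a lack of ETS sites cannot be read from this. Hlf and Slamf1, with overlapping groups, had 1 and 2 matches. Of all windows, 64.1% hold GGAAG on either strand, as did 8 of the 10 windows of the genes described. The letters AGATAA, 1 form of the GATA factor motif, and TGTGGT, 1 form of the RUNX motif, were found in 0 of the 10 windows. They were found in 9.99% and 14% of all windows. Other forms of both motifs were not searched, so sites of these factors may still be present. A match describes these letters in this window only.

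Ly6a encodes SCA-1, a small lipid-anchored surface protein that marks mouse stem and progenitor cells and is known to be induced by interferons. It (ENSMUSG00000075602) lies at chr15:74825308-74828064 on the minus strand of NCBIM37, with 819 exonic bases. The controls differed, at 3.78 CPM (95% Wilson interval 3.06 to 4.67) and 10.4 CPM (9.21 to 11.7). Chaf1b-deleted replicate 1 had 63.9 CPM (60.8 to 67.2) and Chaf1b-deleted replicate 2 had 10.99 CPM (9.58 to 12.6). High Ly6a was thus a property of 1 library, and the intervals of Chaf1b-deleted replicate 2 and control replicate 2 overlapped. The log2 fold change over all libraries was 2.50 (SE 0.82, 95% interval 0.60 to 4.40; edgeR quasi-likelihood test, adjusted p = 0.273). It was 0.55 without Chaf1b-deleted replicate 1 (edgeR adjusted p = 0.691) and 3.31 without Chaf1b-deleted replicate 2 (0.0267). Interferon-stimulated genes were high in the same library, and their part in the level of Ly6a was not tested. Of the 31-base stretches in the exons of Ly6a, 27.3% also occur elsewhere in the genome, and where was not examined. Reads from such stretches may be missing from its counts, because reads without a unique alignment were tallied apart from genes. These numbered 6868427 in Chaf1b-deleted replicate 2, the fewest, and 9239703 in control replicate 2, the most. For the other 9 genes this share was at most 2.56%.

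**Figure D2:**
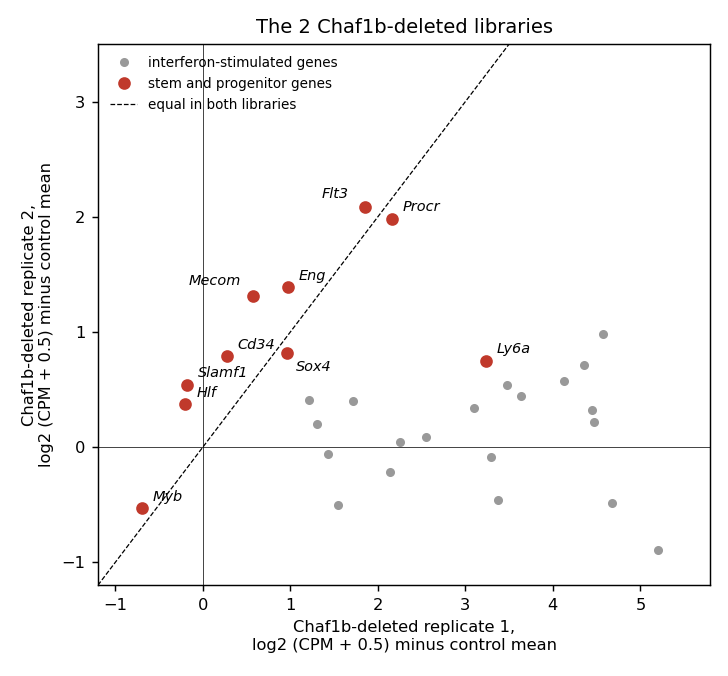
Difference of each Chaf1b-deleted library from the control mean, as log2 (CPM + 0.5), replicate 1 on the horizontal and replicate 2 on the vertical axis, for the 10 genes (red) and 20 interferon-stimulated genes (grey), with a dashed line at equal differences. Ly6a (3.24 and 0.75) lies among the grey points, while Flt3 (1.85 and 2.08) and Procr (2.16 and 1.98) lie near the line.

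Cd34 encodes a sialomucin of progenitors that is low on mouse long-term stem cells. It (ENSMUSG00000016494) lies at chr1:196765015-196787486 on the plus strand of NCBIM37, with 2621 exonic bases. It had 76.9 and 77.6 CPM in the controls and 93.4 and 134 CPM in the deleted libraries. The controls were nearly equal and the deleted libraries, both higher, were 1.44 times apart. On the log2 scale the difference was 0.57 (SE 0.21, 95% interval 0.08 to 1.05), or 1.48-fold (edgeR quasi-likelihood test, adjusted p = 0.325). Without Chaf1b-deleted replicate 1 it was 0.71 and without Chaf1b-deleted replicate 2 it was 0.41.

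Slamf1 encodes CD150, a receptor used to separate stem cells from other progenitors. It (ENSMUSG00000015316) lies at chr1:173697258-173731315 on the plus strand of NCBIM37, with 3402 exonic bases. It had 22 and 28 counts in the controls, or 0.968 CPM (95% Wilson interval 0.639 to 1.47) and 1.10 CPM (0.762 to 1.59). The deleted libraries had 20 and 32 counts, or 0.850 CPM (0.550 to 1.31) and 1.73 CPM (1.23 to 2.45). The groups overlapped, and a difference was not detectable at this depth. Its log2 fold change was 0.31 (SE 0.55, 95% interval -0.98 to 1.59; edgeR quasi-likelihood test, adjusted p = 0.875), and it turned to -0.14 without Chaf1b-deleted replicate 2.

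Among the transcription factors, Myb had the highest level. It is a DNA-binding protein needed by dividing progenitors of the blood, and its expression drops as cells mature. The gene (ENSMUSG00000019982) lies at chr10:20844736-20880790 on the minus strand of NCBIM37, with 3777 exonic bases. The controls had 475 and 492 CPM, from 10802 and 12498 counts, and the deleted libraries had 298 and 335 CPM, from 7004 and 6178 counts. The deleted libraries were both below both controls, by more than the replicates of either group differed. The log2 fold change was -0.59 (SE 0.21, 95% interval -1.09 to -0.10; edgeR quasi-likelihood test, adjusted p = 0.313), and fits that left out 1 library gave -0.61 to -0.56. Myb made up 78.7% and 78.6% of the counts on the 10 genes in the controls and 54.5% and 56.6% in the deleted libraries. The ratio of Cd34 to Myb counts, which does not depend on the scaling of a library, was 0.162 and 0.158 in the controls and 0.314 and 0.401 in the deleted libraries.

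Sox4 encodes an HMG-box factor that acts in stem cells and early lymphoid cells. It (ENSMUSG00000076431) lies at chr13:29040788-29045582 on the minus strand of NCBIM37, as a single exon of 4795 bases. The controls had 10.3 and 7.91 CPM and the deleted libraries had 18.1 and 16.2 CPM. Both deleted libraries were above both controls, and the replicates differed by up to 1.30 times. On the log2 scale the groups differed by 0.95 (SE 0.30, 95% interval 0.25 to 1.65), or 1.93-fold (edgeR quasi-likelihood test, adjusted p = 0.256). Without Chaf1b-deleted replicate 1 it was 0.75 and without Chaf1b-deleted replicate 2 it was 1.13. An antisense gene, Gm17419, covers 54.6% of the exonic bases of Sox4, and a second entry of the name Sox4 on the same strand shares 8.45%, although neither entry is in the count tables. Overlaps and exonic lengths, and so RPKM, are those of the NCBIM37 annotation, which is not the one used for counting, since 10561 identifiers of the count tables have no name in it. By the methods of the study, these libraries were made with a stranded kit. The strand setting of the counting is not given in the sources used here, so reads of the antisense RNA may be included.

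Mecom encodes the EVI1 zinc-finger proteins, which long-term stem cells need. It (ENSMUSG00000027684) lies at chr3:29850221-30446930 on the minus strand of NCBIM37, with 10581 exonic bases. Counts were low, with 32 and 46 in the controls and 62 and 87 in the deleted libraries. These equal 1.41 CPM (95% Wilson interval 0.997 to 1.99) and 1.81 CPM (1.36 to 2.41), then 2.63 CPM (2.05 to 3.38) and 4.71 CPM (3.82 to 5.81). The deleted libraries were both higher, although the intervals of control replicate 2 and Chaf1b-deleted replicate 1 overlapped. The log2 fold change was 1.19 (SE 0.47, 95% interval 0.10 to 2.27; edgeR quasi-likelihood test, adjusted p = 0.356). It was 1.46 without Chaf1b-deleted replicate 1 and 0.85 without Chaf1b-deleted replicate 2.

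Hlf encodes a PAR bZIP factor of stem cells. It (ENSMUSG00000003949) lies at chr11:90197849-90252231 on the minus strand of NCBIM37, with 6494 exonic bases. It had 11.5 and 14.6 CPM in the controls and 11.2 and 16.9 CPM in the deleted libraries, so that the groups overlapped. Its log2 fold change was 0.12 (SE 0.29, 95% interval -0.56 to 0.80; edgeR quasi-likelihood test, adjusted p = 0.917). Its sign turned without control replicate 1 (-0.04) and without Chaf1b-deleted replicate 2 (-0.08).

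**Figure D3:**
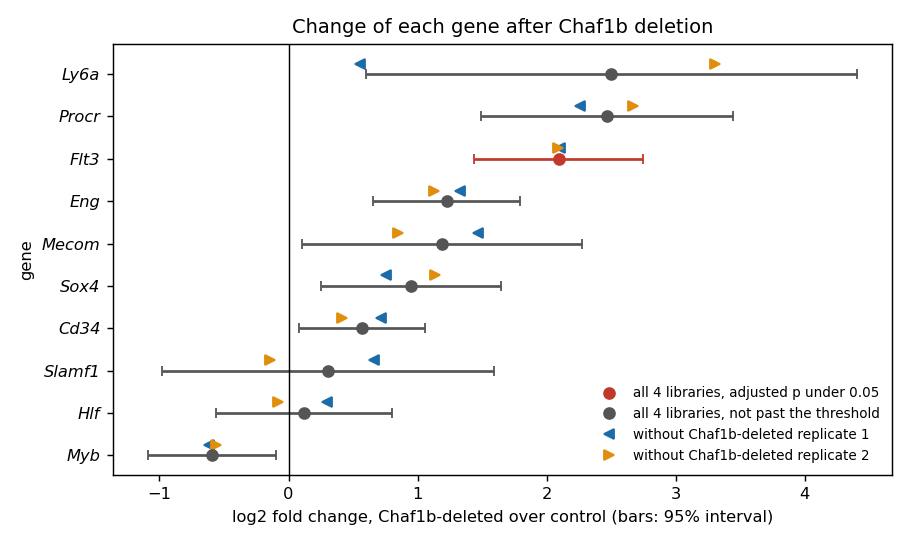
Log2 fold change of Chaf1b-deleted over control for each gene, with circles for the fit over all 4 libraries, bars for its 95% interval, and triangles for the fits without 1 of the deleted libraries. Flt3, in red at 2.09, is the gene past the adjusted threshold, and its triangles nearly coincide, while those of Ly6a lie at 0.55 and 3.31.

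The number of the 10 genes that were called depended on the libraries used. It remained 1 without Chaf1b-deleted replicate 1 (Flt3), and was 3 without Chaf1b-deleted replicate 2 (Flt3, Ly6a and Procr), 4 without control replicate 1 (Eng, Flt3, Ly6a and Procr) and 3 without control replicate 2 (Flt3, Ly6a and Procr). Over all genes the number called higher also grew in these fits, from 61 of 16500 to 125, 324, 280 and 331 in the same order, of 17336, 17123, 17452 and 17220 genes tested. Flt3 was called in all 4 of these edgeR fits, in which the single library left in a group is assumed to vary like the others.

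To compare genes with each other, levels were divided by exonic length, as reads per kilobase of exon, scaled like CPM (RPKM). In control cells, Myb led with 128 ± 3.14 RPKM (SD, n = 2), followed by Cd34 with 29.5 ± 0.207 RPKM (SD, n = 2) and Ly6a with 8.65 ± 5.70 RPKM (SD, n = 2). Eng had 4.11 RPKM, and Hlf (2.01 RPKM) and Sox4 (1.90 RPKM) followed with overlapping replicates. Flt3 (0.808 RPKM), Procr (0.648 RPKM), Slamf1 (0.304 RPKM) and Mecom (0.152 RPKM) came last, in that order in both replicates. In Chaf1b-deleted cells the order was Myb with 83.7 ± 6.92 RPKM (SD, n = 2), then Ly6a (45.7 RPKM) and Cd34 (43.4 RPKM), whose replicates overlapped, and Eng (9.52 RPKM). Sox4 (3.58 RPKM), Procr (3.51 RPKM) and Flt3 (3.40 RPKM) did not differ beyond their spread there, and the last of them was above Hlf (2.17 RPKM). Flt3 and Procr, below Hlf in both controls, were thus above it in both deleted libraries. Slamf1 (0.380 RPKM) and Mecom (0.347 RPKM) overlapped at the lower end.

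For each gene, the gene with the nearest profile was sought among the 16499 others tested, as the smallest Euclidean distance between log2 (CPM + 0.5) values over the 4 libraries, each centred on its own mean. These were Rasal1 for Flt3 (distance 0.04), Spink2 for Procr (0.12), Bcl6b for Eng (0.04), Wdr78 for Cd34 (0.03), Gm20448 for Slamf1 (0.04) and Gbp9 for Ly6a (0.42). Cdca7l was nearest to Myb (0.04), Gadd45b to Sox4 (0.06), Slc37a3 to Mecom (0.06) and Ceacam19 to Hlf (0.02). With 4 libraries, small distances arise readily among so many genes, and the larger one of Ly6a is for a profile that itself spreads over 2.82 on the same measure.

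Other genes of long-term stem cells, as a list of 30 of which 28 were tested, showed no common direction. The log2 fold change was positive for 16 and negative for 12, with a median of 0.18, beside -0.03 over all genes tested. In the edgeR test 1 was called higher and 0 lower, with 7 upward and 1 downward at an unadjusted p below 0.05, and DESeq2 called 3 higher and 0 lower. Beside these and the following lists stand the shares of all genes tested given above. These are 0.370% called higher and 0.00606% lower by edgeR, 3.09% and 0.210% by DESeq2, 9.15% and 3.10% at an unadjusted p under 0.05, and 21.4% and 22.9% without overlap. The edgeR calls of the list were 3 and its median 0.29 without Chaf1b-deleted replicate 1, and 1 to 3 and 0.14 to 0.29 over the fits that each left out 1 library. The called gene was Cdkn1c, for the CDK inhibitor p57 that keeps stem cells quiescent. It had 14 and 38 counts in the controls and 368 and 229 counts in the deleted libraries and rose by 3.76 on the log2 scale (SE 0.50; edgeR quasi-likelihood test, adjusted p = 0.0371). The size of the change ranged from 3.27 without control replicate 1 to 4.52 without control replicate 2. That call was lost with the size factors of DESeq2 in edgeR (adjusted p = 0.0525), with library size only (0.0583) and with at least 10 counts in every library (0.0651). With the replicate number as a block in edgeR, the adjusted p was 0.115. Fgd5, a marker of long-term stem cells, had 9 and 5 counts in the controls and 38 and 96 in the deleted libraries (log2 fold change 3.48, SE 0.73; edgeR adjusted p = 0.114). It reached the minimum count of 10 in the deleted libraries only, so it entered the test through that group. Vwf, the gene of von Willebrand factor, had 156 and 188 counts, then 324 and 525 (1.56, SE 0.35; edgeR adjusted p = 0.130). Esam (1.41) and Gprasp2 (1.59) also had groups without overlap, at 6 to 38 counts per library. Of the 28 genes, 9 had groups without overlap upward and 3 downward. Those lower in both deleted libraries were Mllt3 (-0.65), Hoxa9 (-0.57) and Fli1 (-0.20). The most abundant gene of the list by mean CPM, Fli1, had 305, 322, 302 and 227 CPM.

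Progenitor genes of the separate lineages were listed next, and differences between the lists were not tested. Of 12 lymphoid-primed genes, all tested, 11 had a positive log2 fold change, with a median of 0.61, and 7 had groups without overlap, all upward. None of them was called by the edgeR test (0 or 1 with 1 library left out), 3 had an unadjusted p under 0.05, and DESeq2 called 1, Dntt. Dntt, which encodes terminal transferase, had 2.51 and 2.99 CPM in the controls and 7.65 and 8.34 CPM in the deleted libraries (log2 fold change 1.56, SE 0.36; edgeR adjusted p = 0.142). Il7r, the IL-7 receptor gene, had 2.77 and 6.73 CPM, then 12.7 and 9.26 CPM. Cd27 had a log2 fold change of 0.79 and Rag1, at 11 to 23 counts, of 0.92. Ikzf1, the most abundant gene of the list, had 381 and 380 CPM, then 439 and 484 CPM. Of 14 myeloid genes, all tested, 6 had a positive and 8 a negative log2 fold change, with a median of -0.07 that ranged from -0.44 to 0.29 with each library left out in turn. The edgeR test called 0 of them, with 1 upward and 1 downward at an unadjusted p below 0.05, and DESeq2 called 0. Without Chaf1b-deleted replicate 1, edgeR called 1 of the myeloid genes and the median was -0.44. Elane, for neutrophil elastase, had 1739 and 2369 CPM in the controls and 1229 and 751 CPM in the deleted libraries (SE of the log2 fold change 0.36; edgeR adjusted p = 0.319). Csf3r (0.74) and Irf8 (0.65) were higher in both deleted libraries. Of 12 megakaryocyte and erythroid genes, 6 were higher and 6 lower, and edgeR called 0 (3 upward and 2 downward at an unadjusted p below 0.05), while DESeq2 called 1, Pf4. Pf4 (1.40), Itga2b (0.90) and Hba-a1 (1.80) were higher and Car1 (-0.72) and Tfrc (-0.69), the most abundant of the list, lower in both deleted libraries. The median of that list was 0.00 and ranged from -0.54 to 0.38 with each library left out, and without Chaf1b-deleted replicate 1 edgeR called 2 of its genes.

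Relatives and partners of the 10 genes were listed as 30 genes, of which 29 were tested and Sox11, with 1 to 6 counts, was not. The edgeR test called 0, with 8 upward and 0 downward at an unadjusted p below 0.05, and DESeq2 called Acvrl1 and Thbd higher. With 1 library left out, edgeR called 0 to 3. The median log2 fold change was 0.28, with 20 positive and 9 negative values. Acvrl1 encodes ALK1, the receptor with which endoglin acts. It had 23.5 and 16.7 CPM in the controls and 85.2 and 48.6 CPM in the deleted libraries (log2 fold change 1.79, SE 0.36; edgeR adjusted p = 0.105). Thbd encodes thrombomodulin, which together with thrombin activates the protein C that EPCR binds. Its CPM values were 3.96 and 7.71, then 17.8 and 14.0 (log2 fold change 1.49, SE 0.40; edgeR adjusted p = 0.189). The gene of FLT3 ligand, Flt3l, had 201 and 209 counts in the controls and 157 and 228 in the deleted libraries, with overlapping groups (0.15). Of the SLAM family, Slamf7 had a log2 fold change of 1.54 and Cd48, absent from long-term stem cells, of 0.06. Ly6d, a neighbour of Ly6a in its family, had 16 and 16 counts in the controls and 68 and 26 in the deleted libraries. Ly6c2, the most abundant of the list, had 633 and 778 CPM, then 1496 and 620 CPM, and was, like Ly6a, high in Chaf1b-deleted replicate 1. Mybl1 (-0.05) and Mybl2 (-0.02), the relatives of Myb, and Tef (-0.05) and Dbp (0.12), those of Hlf, had overlapping groups.

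**Figure D4:**
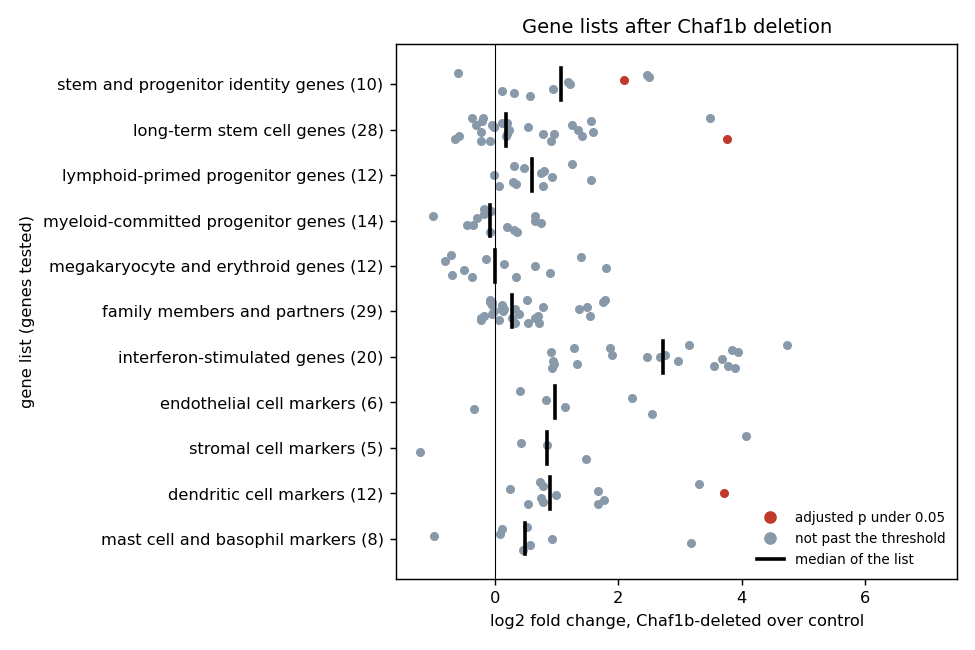
Log2 fold change of Chaf1b-deleted over control for each tested gene of the lists, with the number of genes tested in brackets, 1 point per gene, a black bar at the median of each list, and red for the genes past the adjusted threshold (Flt3, Cdkn1c and Fscn1). The median is 1.07 for the stem and progenitor identity genes and 2.72 for the interferon-stimulated genes, and that of the latter rests on Chaf1b-deleted replicate 1.

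Markers of other cells that a CD117-enriched culture could hold were measured beside these results, and their part in the levels of the 10 genes was not tested. Interferon-stimulated genes had a median log2 fold change of 2.72, which was 0.14 without Chaf1b-deleted replicate 1 and 3.60 without Chaf1b-deleted replicate 2. Of the 20, edgeR and DESeq2 called 0 and the exact test of edgeR called 7, and 17 were higher at an unadjusted p under 0.05. The edgeR test called 19 without Chaf1b-deleted replicate 2, 13 without control replicate 1, 14 without control replicate 2 and 0 without Chaf1b-deleted replicate 1. Isg15 had 1.28 and 2.05 CPM, then 43.1 and 2.98 CPM, and Oasl2, Rtp4 and Rsad2 showed the same excess in that library. Ddx58, the most abundant by mean CPM over the libraries, had 71.3, 79.1, 248 and 99.5 CPM. Since Eng and Procr are also genes of endothelium, 11 endothelial markers were examined, of which 6 passed the filter. Their summed level was 90.2 and 81.3 CPM in the controls and 124 and 138 CPM in the deleted libraries. Flt1 was the most abundant by mean CPM (48.4 and 30.7, then 84.9 and 85.6 CPM), followed by Egfl7, which did not share its direction (33.8 and 43.9, then 26.04 and 34.9 CPM, log2 fold change -0.34). Cdh5, the cadherin that defines endothelium, had 4 and 2 counts, then 12 and 19, and Sox17 and Sox18 had at most 1 count in any library. Of the 6, 5 had a positive and 1 a negative log2 fold change, with a median of 0.98 that ranged from 0.83 to 1.505 when 1 library was left out. Cdh5 reached the minimum count of 10 in the deleted libraries only and passed the filter through them. Its positive value was thus fixed by the filter, and the number of positive genes and the median partly rest on it. The edgeR test called 0 (0 or 1 with 1 library left out), with 4 higher at an unadjusted p under 0.05, and DESeq2 called Flt1 and Kdr. Kdr had 18 and 16 counts, then 97 and 42, and Tie1 a log2 fold change of 0.83. Of 9 stromal markers, 5 were tested, with a median of 0.84 (0.27 to 1.97 with 1 library left out) and a summed level of 26.04 and 11.8 CPM, then 23.5 and 45.0 CPM. The edgeR test called 0 of them (2 higher at an unadjusted p under 0.05) and DESeq2 called Pdgfra, which had 1 and 2 counts, then 19 and 27. Pdgfra, too, passed the filter through the deleted libraries alone, so the direction of its change and part of this median follow from the filter. Col1a1 had 50 and 31 counts, then 128 and 71, and Lepr 11 and 11, then 5 and 3. Pdgfrb was the most abundant of the list, with 17.5, 9.25, 14.6 and 33.9 CPM, and the defining genes Dcn and Lum had at most 1 count.

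Dendritic cell markers were of interest because FLT3 is a receptor of dendritic cell progenitors. Of 13, 12 were tested and all had a positive log2 fold change, with a median of 0.89 that ranged from 0.42 to 2.18 with each library left out in turn. The edgeR test called 1 higher and 0 lower, with 5 upward and 0 downward at an unadjusted p below 0.05, and DESeq2 called Fscn1, Ccr7 and Itgax. Of the 12, 6 had groups without overlap upward and 0 downward, and the groups of the rest overlapped. With 1 library left out, edgeR called 2 to 7, and 2 without Chaf1b-deleted replicate 1. Fscn1, for the actin-bundling protein of mature dendritic cells, had 1.41 and 2.64 CPM in the controls and 25.7 and 26.7 CPM in the deleted libraries and rose by 3.72 on the log2 scale (SE 0.37; edgeR quasi-likelihood test, adjusted p = 0.0254). Ccr7 had 38 and 105 counts, then 825 and 374 (3.30, SE 0.51; edgeR adjusted p = 0.0555). Itgax (1.68), Batf3 (1.78) and Siglech (1.67) had groups without overlap. Cd74, the most abundant, differed between replicates of a group, with 86.2 and 487 CPM in the controls and 566 and 216 CPM in the deleted libraries. The summed level of the list was 174, 918, 1248 and 514 CPM. Of 8 mast cell and basophil markers, all tested, edgeR called 0 (1 upward and 1 downward at an unadjusted p below 0.05) and DESeq2 called Tpsb2 higher and Ms4a2 lower. With 1 library left out, edgeR called 0 to 2, and the median, 0.49 over all libraries, ranged from 0.01 to 0.98. Their summed level was 1024, 699, 1023 and 943 CPM, and Cpa3 was the most abundant by mean CPM (328, 129, 264 and 363 CPM). Ms4a2 had 144 and 108 CPM, then 58.5 and 67.5 CPM, Hdc a log2 fold change of 0.57, and Tpsb2 12 and 2 counts, then 26 and 84.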

How the data were processed

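By the submitters' processing notes, the authors used STAR for alignment to mm9 and HTSeq for counting per gene, and what they deposited is a table of raw counts for each library. The annotation release and strand setting are not given in the sources used here. Of reads assigned or left without a single gene, 35.8% to 48.3% fell on no gene and 2.05% to 2.76% were ambiguous; both were left out. Symbols, positions and exonic lengths come from the NCBIM37 annotation, which names 33068 of the 43629 identifiers.

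From the counts, edgeR 4.0.16 (R 4.3.3) kept genes by its expression filter with a minimum count of 10, applied TMM factors (0.926 to 1.06) and fitted glmQLFit and glmQLFTest with group as the single term, on all 4 libraries. CPM and RPKM use totals on genes without TMM factors. The fit was tested on simulated data. Alternatives were 3 other scalings, 2 other filters, edgeR's exact, likelihood ratio and bias-adjusted tests, DESeq2 1.42.0, a replicate block, other thresholds, and each library left out. Replicates of a group differed beyond sampling noise, with a chi-square per degree of freedom of 44.4 in control and 66.8 in Chaf1b-deleted cells.

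Named genes are the 10 genes, Chaf1b, and in each list the called genes, up to 4 others with the largest log2 fold change among those without overlap, and the most abundant; other names were chosen after their values were seen. The genes and lists were chosen with earlier results of these data known. Figures were drawn with matplotlib 3.10.9.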

Additional observations from a re-analysis of the deposited data

How the results depend on the processing

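Of 140 values of single genes among the 10 under alternative settings, 117 kept their direction and their side of the threshold, 16 moved past it in the same direction, 4 lost it (Flt3) and 3 changed sign: Hlf without control replicate 1 (-0.04) and without Chaf1b-deleted replicate 2 (-0.078, where it was 0.30 without Chaf1b-deleted replicate 1), and Slamf1 without Chaf1b-deleted replicate 2 (-0.14, and 0.66 without Chaf1b-deleted replicate 1). The cause of these changes was not tested. The 10 genes held 1 called higher and 0 called lower, among 61 and 1 of all genes. DESeq2's size factors in edgeR gave 0 of the 10 and 27 genes higher, and library size only gave 0 and 30. Without a low-count filter, 4 of the 10, 808 genes higher and 79 lower were called, and with at least 10 counts in every library 0, 3 and 0. The corresponding numbers were 3, 537 and 37 with the exact test, 3, 583 and 40 with the likelihood ratio test, and 3, 471 and 32 with DESeq2. At 2-fold and an adjusted p under 0.01 they were 0, 0 and 0. When any 1 library was left out, between 1 and 4 of the 10, 125 to 331 genes higher and 6 to 42 lower were called. Upper-quartile factors, the bias-adjusted test and no fold threshold kept the 10 genes' count at 1. None of the 10 was called lower in any of these settings. The labels give both groups replicates 1 and 2, but same-numbered libraries did not deviate together (r = 0.0181 across 16500 genes, which are not independent replicates). With the replicate block, 0 of the 10, 14 genes higher and 0 lower were called. Among the listed genes, the calls of Chaf1b, Cdkn1c and Fscn1 held with each library left out and were lost under the replicate block and the minimum of 10 counts in every library, and that of Cdkn1c also with the first 2 scalings above. Depth limits Slamf1, Mecom and Procr most, each under 50 counts in a control library.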
